A study of Paramacrobiotus metropolitanus with 7 samples.

Results

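A run of loci with neighbouring numbers, PARRI_0008551 to PARRI_0008655, was described in the whole-body transcriptome of *Paramacrobiotus metropolitanus*, a tardigrade with separate males and females. All transcripts of the expression matrix whose locus number lies in this range were taken, which gave 119 transcripts at 105 loci, of 26306 transcripts at 24899 loci in the matrix. No number between these limits was missing. The range had been selected on the measured levels of its transcripts in males and females, many being higher in males, so every difference between the sexes given for its transcripts is a description of how they were chosen and supports nothing further.

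RNA was extracted from 4 tubes of adult males (Male 1 to Male 4) and 3 tubes of adult females (Female 1 to Female 3) of the TYO strain, each tube holding pooled specimens of 1 sex that had been reared apart after hatching. Poly A-selected RNA of whole bodies was sequenced, and values are TPM, an abundance per transcript that allows for its length, after TMM scaling of the libraries to each other. The sources used here do not say whether the tubes came from separate cultures, so p-values measure the spread between these tubes, which may be technical. TPM keep no sequencing depth, and in whole-body pools fewer cells of a type, less RNA per cell and fewer animals that carry a transcript cannot be told apart.

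Male-biased transcripts of animals are often those of the testis and of developing sperm, and in several animals, Drosophila among them, testis-expressed genes lie in groups of neighbours along a chromosome. Neighbours here means neighbours by number. The identifiers carry no gene name, and 0 of the 24899 gene identifiers was found in the RefSeq gene table given for the species, so no role, position or sequence is given for any transcript, and distances between the loci were not analysed here.

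A transcript was called male-high when the ratio of its mean in males to its mean in females, each + 0.1, was over 10, its male mean was at least 1 TPM and every male library lay above every female library. In the range 78 of 119 transcripts were male-high, or 65.5%, against 5.48% of all 26306 transcripts. These lay at 73 of 105 loci, or 69.5%, against 5.66% of all loci with at least 1 such transcript. With 1 added to the means in place of 0.1, 32 were male-high (26.9%, against 2.34% of all), and after quantile scaling of the libraries 49 were (41.2%, against 3.41% of all). Every male library lay above every female library in 90 transcripts of the range (21.7% over the matrix), and every female library lay above every male library in 4 (18.8% over the matrix).

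Of the 119 transcripts, 103 reached 1 TPM in at least 3 of the 7 libraries and were tested with limma on log2(TPM + 0.1). At a Benjamini-Hochberg FDR below 0.05 over all 18420 transcripts tested, 90 were higher in males, where 25.3% of all tested transcripts were. A further 4 were higher in females, where 23.9% of all tested transcripts were, 9 passed in neither direction and 16 were not tested. The median difference of the tested transcripts of the range, males minus females, was 4.49 on the log2 scale, against 0.50 over all tested transcripts. The range thus lay 4.00 above the median of the matrix. A pair of other number ranges with many male-high transcripts held 120 of 206 (58.3%, PARRI_0011896 to PARRI_0012090) and 53 of 65 (81.5%, PARRI_0012286 to PARRI_0012345).

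**Figure D1:**
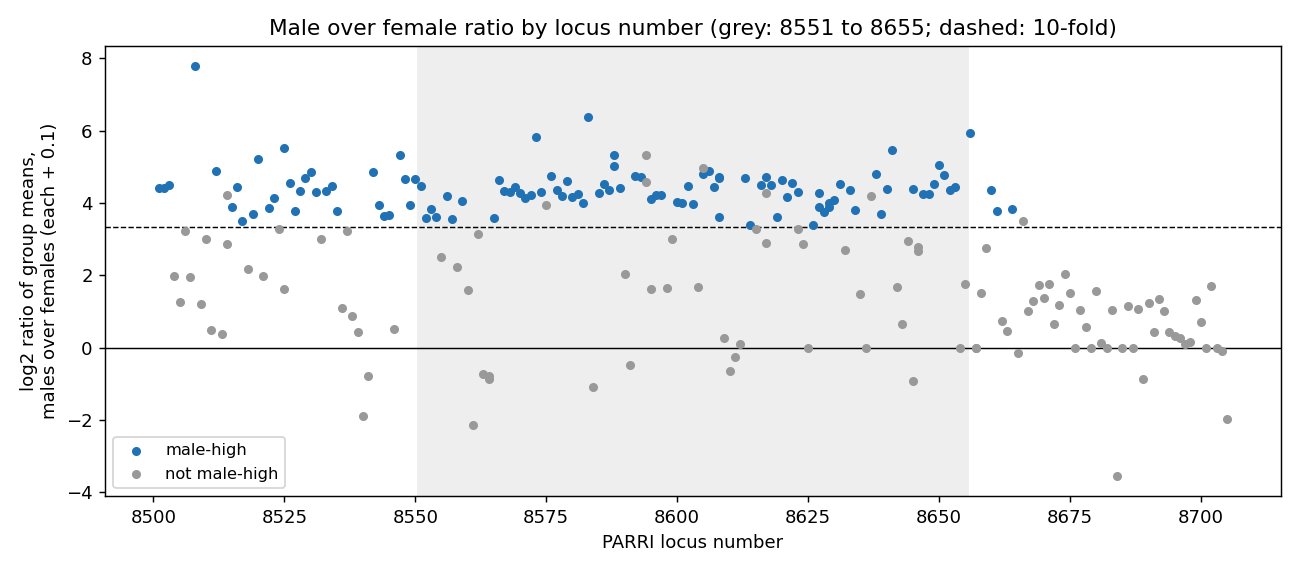
Each point is a transcript, plotted by PARRI locus number against the log2 ratio of the male mean to the female mean, each + 0.1. The shaded range, PARRI_0008551 to PARRI_0008655, and 50 loci on each side are shown, blue points are male-high and grey points are not. Male-high points go on below it, where 30 of 50 loci had one, and thin out above it, where 4 of 50 did. Where all females are listed at 0 the height of a point depends on the 0.1 added.

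The limits of the range were not equally sharp. Of the 50 loci below it, 30 (60%) had a male-high transcript, and of the 10 nearest 8 did. Of the 50 loci above it, 4 (8%) had one, all within the 10 nearest. Levels were also lower there, as 21 of the 51 transcripts above the range reached the filter for testing, against 49 of 52 below it. Of those tested, 7 above and 41 below were called higher in males. The last transcript below the range, PARRI_0008550.t1, had 54.2, 32.9, 57.4 and 29.5 TPM in males and 0.383, 2.41 and 2.11 TPM in females. The first inside, PARRI_0008551.t1, had 7.88, 6.56, 8.43 and 6.38 TPM in males and 0, 0.615 and 0.098 TPM in females. Both were male-high, with ratios of 25.2 and 22.0, and a run of male-high loci crossed the lower limit. At the upper limit PARRI_0008655.t1 was listed at 0.965 TPM in Male 3 and at 0 in the other 6 libraries. The next locus, PARRI_0008656.t1, had 23.9, 17.2, 28.0 and 50.8 TPM in males and 0.274, 0.564 and 0.326 TPM in females, so that a male-high locus lay just outside it. At the 10-fold threshold itself, the ratios were 10.4 (PARRI_0008626.t1) and 10.5 (PARRI_0008614.t1) just above it and 9.77 (PARRI_0008615.t1) and 8.79 (PARRI_0008562.t1) just below it.

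The male-high loci fell into 17 runs of consecutive numbers. The longest held 10 loci (8565 to 8574), followed by 8 (8576 to 8583), 8 (8616 to 8623), 7 (8647 to 8653), 6 (8626 to 8631) and 5 (8585 to 8589). The longest run in the whole matrix held 14 loci (12303 to 12316). The runs of 10 and 8 were parted by locus 8575 alone. PARRI_0008575.t1 had 6.47, 7.64, 0 and 24.9 TPM in males and 0, 1.60 and 0.033 TPM in females, so Male 3 overlapped the females, and without Male 3 the longest run held 19 loci. The longest stretches without a male-high locus held 5 loci (8560 to 8564) and 4 loci (8609 to 8612).

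Along the range, in blocks of 15 loci by number, 8, 14, 12, 12, 10, 13 and 9 transcripts were male-high. The median male mean of those transcripts was 7.05, 20.3, 15.2, 13.2, 14.0, 8.05 and 4.28 TPM in the same order, so the highest block median was in loci 8566 to 8580 and the lowest in the last block. Adjacent loci differed in level about as much as any pair. The male means of 56 pairs of adjacent male-high loci differed by a median of 1.61 on the log2 scale, and those of all 2628 pairs by 1.63.

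The male-high transcripts of the range had male means between 1.80 and 213 TPM, with a median of 11.4 and quartiles of 6.22 and 25.2 TPM. Only 6 reached 100 TPM, 34 lay between 10 and 100 TPM and 38 between 1 and 10 TPM, and the 10 most abundant made up 52.5% of the summed male means. Together the 78 transcripts summed to 2650, 1640, 2581 and 2044 TPM in males and to 13.6, 174 and 109 TPM in females. The male sums averaged 2229 ± 477 TPM (SD, n = 4) and the female sums 98.9 ± 80.6 TPM (SD, n = 3). In males this was between 0.184% and 0.238% of a library. The other 41 transcripts of the range summed to 853 ± 119 TPM in males and 853 ± 62.2 TPM in females. Most of both sums came from PARRI_0008609.t1 (means of 320 TPM in males and 267 TPM in females) and PARRI_0008564.t2 (173 and 316 TPM). The equal sums therefore do not show that the rest of the 41 were alike in the sexes.

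The most abundant was PARRI_0008607.t1, with 244, 162, 246 and 200 TPM in males and 1.11, 17.4 and 10.7 TPM in females, a ratio of 21.7. The second was PARRI_0008574.t1, with 186, 102, 178 and 133 TPM in males and 1.10, 14.0 and 7.31 TPM in females. PARRI_0008592.t1 had 170, 92.4, 164 and 116 TPM in males and 0.119, 9.56 and 5.32 TPM in females. In all of these Male 2 was the lowest male and Female 1 the lowest female. The same held for PARRI_0008566.t1, with 156, 103, 150 and 122 TPM in males and 0.520, 8.78 and 6.39 TPM in females. It held as well for PARRI_0008570.t1, with 138, 87.2, 149 and 128 TPM in males and 0.675, 11.0 and 7.65 TPM in females. PARRI_0008585.t1 had 121, 82.2, 120 and 110 TPM in males and 0.274, 9.46 and 6.90 TPM in females.

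The next 4 were below 100 TPM on average in males. PARRI_0008627.t2 had the widest male spread among them, with 123, 51.7, 99.7 and 41.2 TPM in males and 0, 7.13 and 4.71 TPM in females. PARRI_0008618.t1 had 91.6, 63.8, 88.5 and 67.9 TPM in males and 0.849, 4.68 and 4.57 TPM in females. PARRI_0008606.t1 had 90.3, 50.4, 86.7 and 73.3 TPM in males and 0.283, 3.99 and 3.02 TPM in females. In PARRI_0008582.t1, with 88.9, 52.2, 97.4 and 52.7 TPM in males and 0.538, 5.65 and 7.22 TPM in females, Male 2 and Male 4 lay close together and Female 3 was the highest female. Male and female libraries were far apart in all 10, and in all 10 Female 1 was below 2 TPM.

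**Figure D2:**
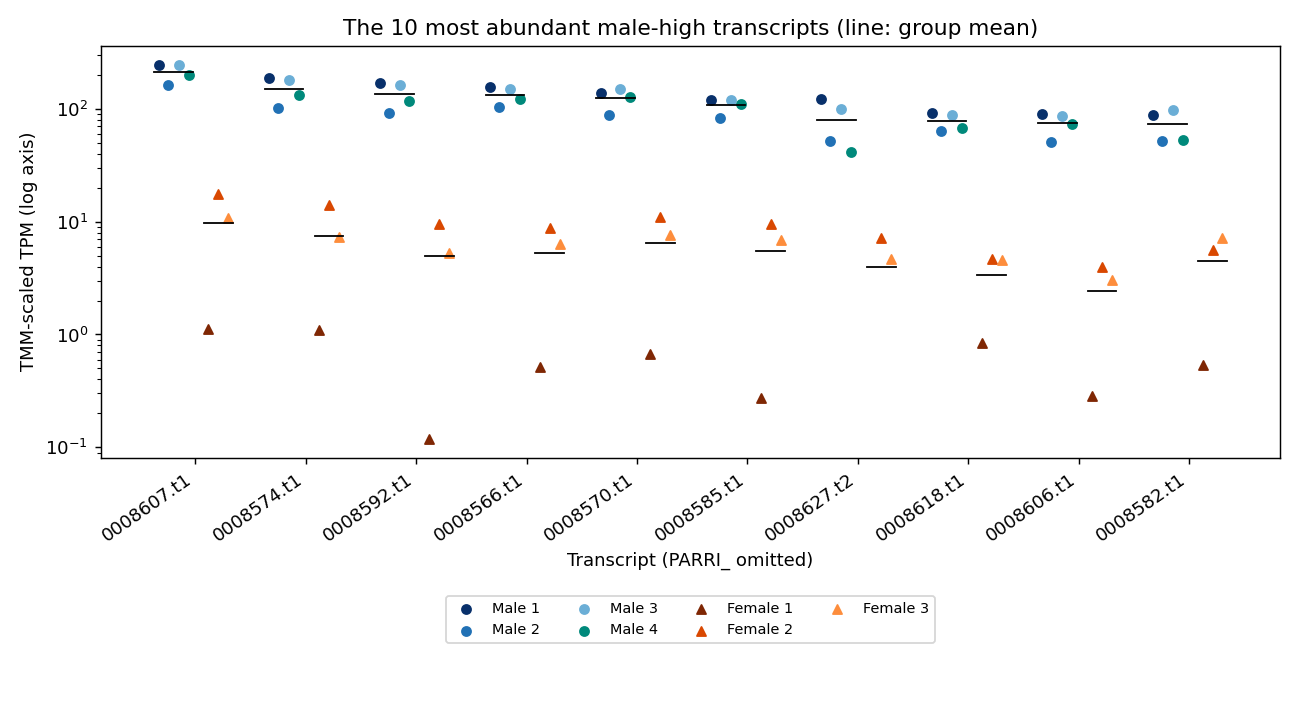
TMM-scaled TPM (log axis) of the 10 male-high transcripts with the highest male means, males as circles and females as triangles, 1 point per library, with a line at each group mean. Males lie between 41.2 and 246 TPM and females at 17.4 TPM or below. Female 1 of PARRI_0008627.t2 is listed at 0 and cannot be drawn on the log axis.

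Ratios of male to female means lay within a limited band among the male-high transcripts, whose definition sets its lower end at 10. Of the 78 male-high transcripts, 72 had ratios between 10 and 30. The 78 had quartiles of 16.6 and 24.1 around a median of 19.9. These figures include transcripts with all females at 0 and depend in part on the 0.1 added, as the median female mean was 0.587 TPM. With 1 added, 32 transcripts of the range were male-high. The 1364 male-high transcripts elsewhere in the matrix had a median of 20.2 and quartiles of 14.2 and 29.1. The largest ratio with a female value above 0 was that of PARRI_0008573.t1, with 9.94, 4.49, 7.73 and 7.05 TPM in males and 0.091, 0 and 0 TPM in females, a ratio of 56.8. In 6 of the 78 (7.69%) all females were listed at 0, against 13.1% of male-high transcripts elsewhere, and no fold is given for any of these singly. Among them PARRI_0008583.t1 had 10.5, 3.03, 0.932 and 18.4 TPM in males, on a male mean of 7.58 normalised counts in the authors' table. PARRI_0008641.t1 had 4.96, 2.17, 2.31 and 7.69 TPM in males, on 30.5 normalised counts. Levels were low in both, and 46 of the 78 had a mean below 10 normalised counts in females.

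Female libraries held different amounts of the male-high transcripts, in a repeated order. The 40 male-high transcripts that averaged 10 TPM or more in males were taken, and each female value was set against the male mean. Female 1 was at a median of 0.495% of the male mean (quartiles 0 and 0.764%), Female 2 at 7.80% (6.21 and 8.97%) and Female 3 at 4.53% (3.11 and 6.01%). Female 2 was the highest, Female 3 the next and Female 1 the lowest in 30 of these 40 transcripts. Among the 787 male-high transcripts of that level elsewhere, the medians were 0.400%, 6.83% and 3.77%, and the same order was found in 411 of the 739 with a value above 0 in a female, or 55.6%. Over all tested transcripts of that male level, without regard to sex bias, it was found in 20.3%. The female means of the male-high transcripts thus rest mostly on Female 2 and Female 3. The other 41 transcripts of the range summed to 918, 793 and 849 TPM in Female 1, Female 2 and Female 3. Of these sums PARRI_0008609.t1 alone held 490, 194 and 116 TPM, so the high sum of Female 1 rests on that transcript. Of the 78 male-high transcripts, 34, 8 and 13 were listed at 0 in Female 1, Female 2 and Female 3. What in the female tubes these reads came from was not tested.

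**Figure D3:**
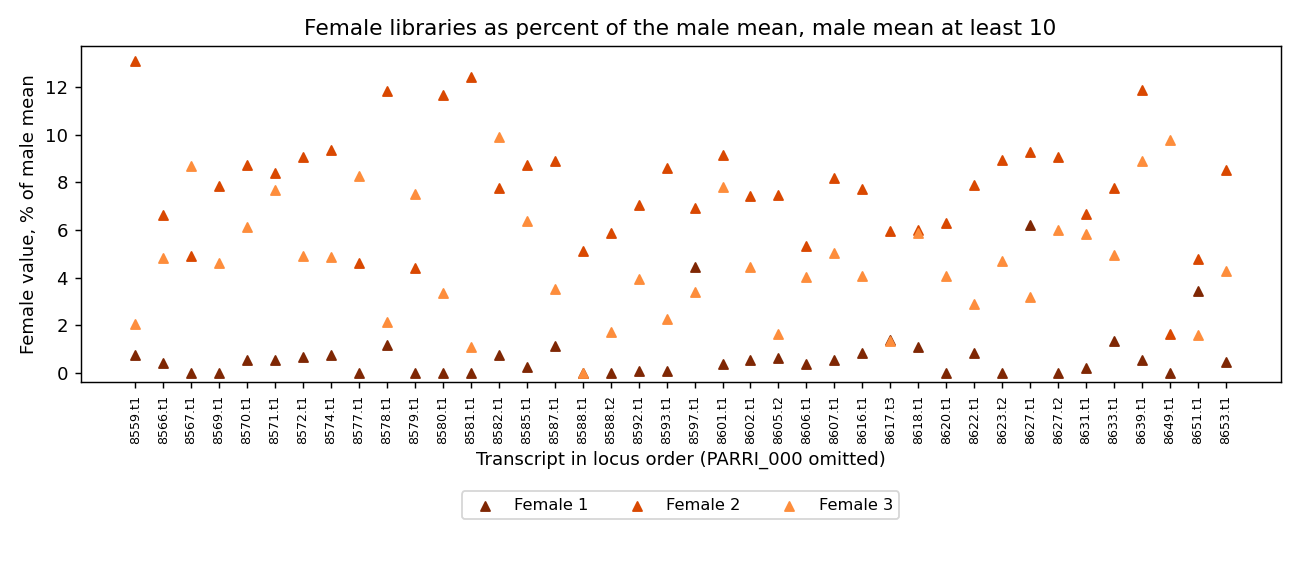
Value in each female library as a percentage of the male mean, for the 40 male-high transcripts of the range that averaged 10 TPM or more in males, in order of locus number. Female 1 has a median of 0.495%, Female 2 of 7.80% and Female 3 of 4.53%, and Female 2 is the highest in most transcripts.

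The male libraries differed from one another in a partly shared way across the male-high transcripts, most clearly in the abundant ones. Of all 78, Male 1 was the highest male in 32 (41.0%), against 32.2% of male-high transcripts elsewhere and 19.6% of all tested. Male 3 was the highest in 27 (34.6%), against 46.6% elsewhere, where it was the most frequent highest male, and 27.6% of all tested. Without Male 1, Male 3 was the highest in 66.2%, and without Male 3, Male 1 was in 64.6%. In the 38 that averaged under 10 TPM in males the pattern was weak. There Male 1 was the highest in 34.2%, Male 4 in 31.6% and Male 3 in 26.3%, and Male 2 was the lowest in 47.4%. The pattern was tighter in the abundant ones. All 40 that averaged 10 TPM or more in males were below their male mean in Male 2, by a median of -0.46 on the log2 scale, and Male 2 was the lowest male in 31. Male 1 was the highest in 19, Male 3 in 17 and Male 4 in 4. Male 1 exceeded Male 2 in 40 of 40, with a median difference of 0.63 on the log2 scale, whereas Male 1 and Male 3 differed by a median of 0.00. The most frequent orders were Male 1, 3, 4, 2 (12 transcripts) and Male 3, 1, 4, 2 (10 transcripts). The scaled libraries themselves summed to unequal totals, 1127680, 891117, 1084280 and 903763 TPM in Male 1 to Male 4. As a share of these totals the 78 transcripts made up 0.235, 0.184, 0.238 and 0.226%, with Male 4 near Male 1 and Male 3. How far the totals shaped the order was not tested. With 4 libraries no correlation across samples was computed, and the points share their libraries.

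Some of this was found in male-high transcripts elsewhere and some was not found to the same extent. Among 787 male-high transcripts elsewhere at that level, Male 1 exceeded Male 2 in 91.1%, with a median difference of 0.63, and over all 9962 tested transcripts of that level it did so in 52.9%, with a median of 0.04. Male 2 was the lowest male in 77.5% of the 40 in the range, in 39.9% of those elsewhere and in 22.9% of all at that level. Male 4 was the lowest in 8 of the 40 in the range and in 52.1% of those elsewhere. Male 1 was the highest in 47.5% in the range and 33.8% elsewhere, and Male 3 in 42.5% in the range and 55.7% elsewhere. Male 3 exceeded Male 4 by a median of 0.38 in the range and 0.72 elsewhere, with an SD over transcripts of 0.44 in the range and 1.43 elsewhere. The SD over the 4 males had a median of 0.40 in the range and 0.48 elsewhere. These shares were not tested against each other, since transcripts are not replicates.

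**Figure D4:**
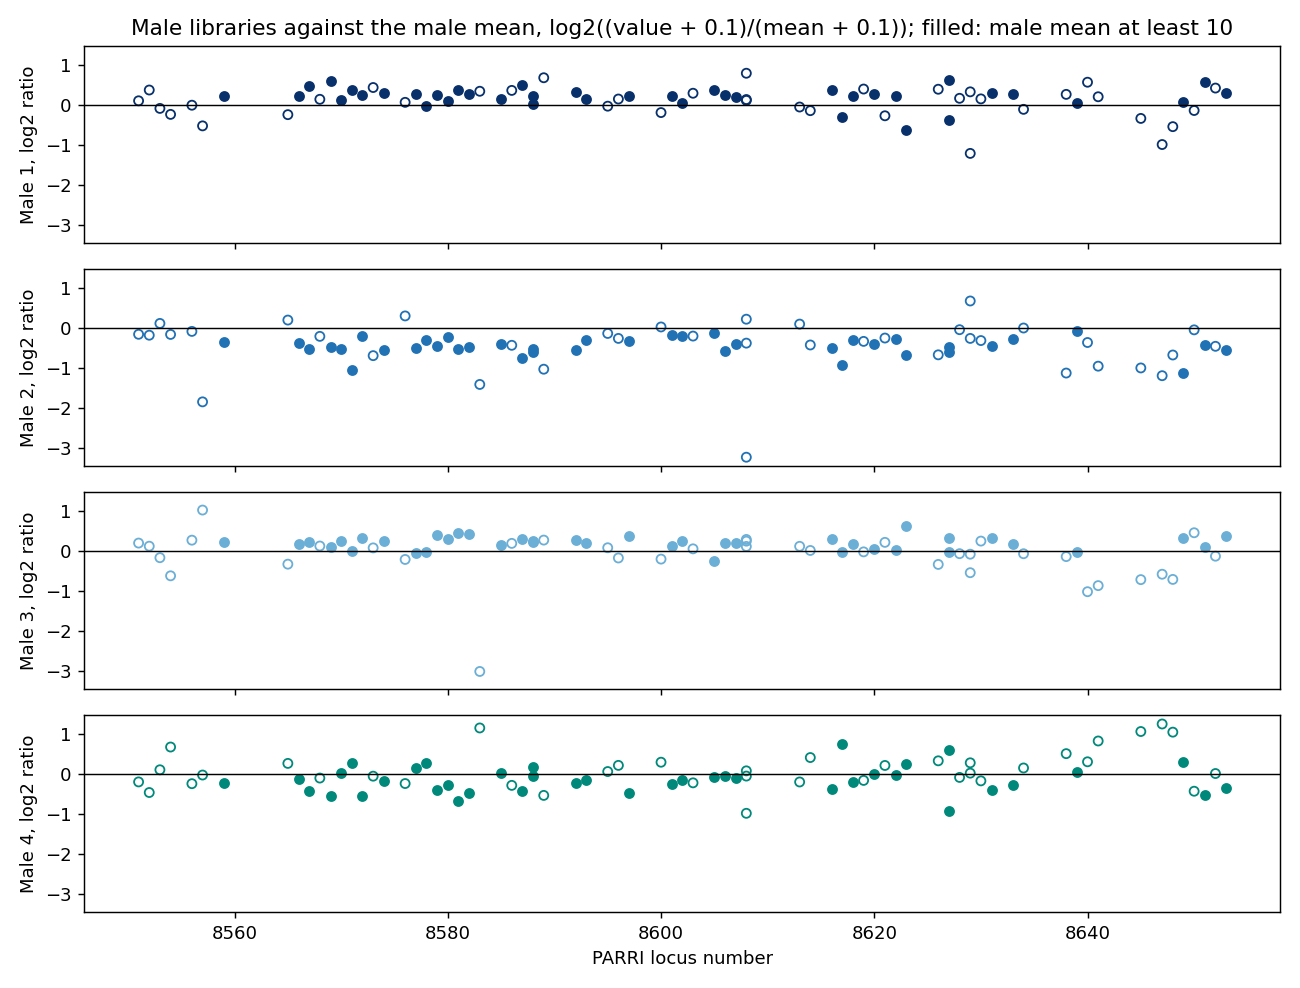
Each male library against the male mean, as the log2 ratio with 0.1 added to both, for the 78 male-high transcripts by PARRI locus number, filled circles for male means of 10 TPM or more. All filled circles of Male 2 lie below 0, and most of those of Male 1 and Male 3 lie above it. From PARRI_0008640 to PARRI_0008648 the circles of Male 4 lie above 0.

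Among the 40, the most even across males was PARRI_0008639.t1, with 13.9, 12.9, 13.3 and 14.1 TPM in males and 0.073, 1.61 and 1.20 TPM in females. PARRI_0008622.t1 had 26.3, 18.5, 22.9 and 22.4 TPM in males and 0.183, 1.77 and 0.651 TPM in females. In PARRI_0008602.t1 the males had 26.4, 22.3, 30.4 and 22.9 TPM and the females 0.137, 1.89 and 1.13 TPM. All kept Male 2 as the lowest male. The widest, beside PARRI_0008627.t2, were PARRI_0008617.t3 and PARRI_0008649.t1. PARRI_0008617.t3 had 8.63, 5.63, 10.4 and 18.1 TPM in males and 0.146, 0.636 and 0.141 TPM in females, with Male 4 the highest. PARRI_0008649.t1 had 18.0, 7.77, 21.3 and 20.8 TPM in males and 0, 0.277 and 1.66 TPM in females, with Male 2 well below the other males.

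A stretch near the upper end, picked after its values were seen, differed in which male was highest. PARRI_0008640 to PARRI_0008648 held 11 transcripts, of which 10 were above 0 in a male and Male 4 was the highest male in 9. Male 4 was the highest in 29.4% of all tested transcripts, but some of the 10 did not reach the filter for testing. Male 4 was so in 31.6% of male-high transcripts of the range with male means under 10 TPM, some of them in this stretch. Of male-high transcripts elsewhere with male means under 10 TPM, Male 4 was the highest in 20.8%. PARRI_0008642.t1 and PARRI_0008643.t1 were above 0 in Male 4 alone, at 0.868 and 0.226 TPM. The 11 transcripts summed to 13.5, 8.02, 8.88 and 32.1 TPM in males and to 0.420, 0.277 and 0 TPM in females. PARRI_0008648.t1 had 1.97, 1.79, 1.75 and 6.15 TPM in males and 0.146, 0.031 and 0 TPM in females, and PARRI_0008647.t1 had 0.857, 0.731, 1.17 and 4.43 TPM in males and 0 in all females. Levels were low, and 6 of the 10 had fewer than 20 normalised counts on average in males, so that single values there rest on few reads.

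The exceptions inside the range were of several kinds. Of the 32 loci without a male-high transcript, 9 had all males above all females with ratios between 2 and 10, 9 had ratios under 2, 7 had both means below 1 TPM, 4 had ratios over 2 with overlapping libraries and 3 (8625, 8636 and 8654) were listed at 0 in all 7 libraries. Among the 9 with ratios between 2 and 10, PARRI_0008598.t1 had 88.9, 72.6, 88.3 and 64.5 TPM in males and 20.3, 39.3 and 15.9 TPM in females, a female level above that of any male-high transcript of the range. PARRI_0008599.t1 had 26.4, 20.3, 25.3 and 26.5 TPM in males and 2.50, 4.00 and 2.52 TPM in females. In these, chosen after their values were seen, Female 1 was not far below the other females, unlike in the most abundant male-high transcripts.

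Ratios under 2 were found for 10 transcripts at 9 loci. In the gap of 5 loci, PARRI_0008561 and PARRI_0008564 had higher levels in females. PARRI_0008561.t1 had 3.38, 6.48, 3.93 and 2.93 TPM in males and 9.61, 20.1 and 27.1 TPM in females, a ratio of 0.22 and a difference of -2.09 in limma, on the log2 scale. PARRI_0008564.t2 had 166, 151, 180 and 196 TPM in males and 251, 292 and 405 TPM in females, a ratio of 0.55. The other transcript of that locus, PARRI_0008564.t1, had 34.6, 22.6, 29.7 and 32.3 TPM in males and 43.8, 49.5 and 61.0 TPM in females. All females lay above all males in these 3, and also in PARRI_0008584.t1, which lay alone between runs of 8 and 5 male-high loci and had 9.44, 15.7, 10.4 and 14.4 TPM in males and 21.4, 37.7 and 21.5 TPM in females. These were the 4 transcripts called higher in females. Without Female 2, 1 of the range was called higher in females. Without Female 3, Male 1, Male 2 or Male 3 in turn, or after quantile scaling, 2 were. Without Male 4, 4 were, and without Female 1, 6 were. Over the matrix, 3169 of 18087 tested were called higher in females without Female 2 and 4938 of 18022 without Female 1.

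The other 6 overlapped between the sexes. PARRI_0008609.t1 had the highest level of the range in several libraries, with 268, 415, 126 and 472 TPM in males and 490, 194 and 116 TPM in females. High and low libraries were found in both sexes, and the ratio of means was 1.20. PARRI_0008611.t1 had 53.7, 42.2, 54.7 and 29.3 TPM in males and 26.4, 55.3 and 80.5 TPM in females, and PARRI_0008591.t1 had 26.9, 22.6, 24.3 and 13.0 TPM in males and 14.4, 30.6 and 45.8 TPM in females. In both, Male 4 was the lowest male and Female 1 the lowest female. The rest (PARRI_0008563.t1, PARRI_0008610.t1 and PARRI_0008612.t1) had ratios of 0.61, 0.64 and 1.07. Female 3 exceeded Female 1 in 9 of the 10 transcripts with ratios under 2, against 65.0% of 12310 such transcripts elsewhere.

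**Figure D5:**
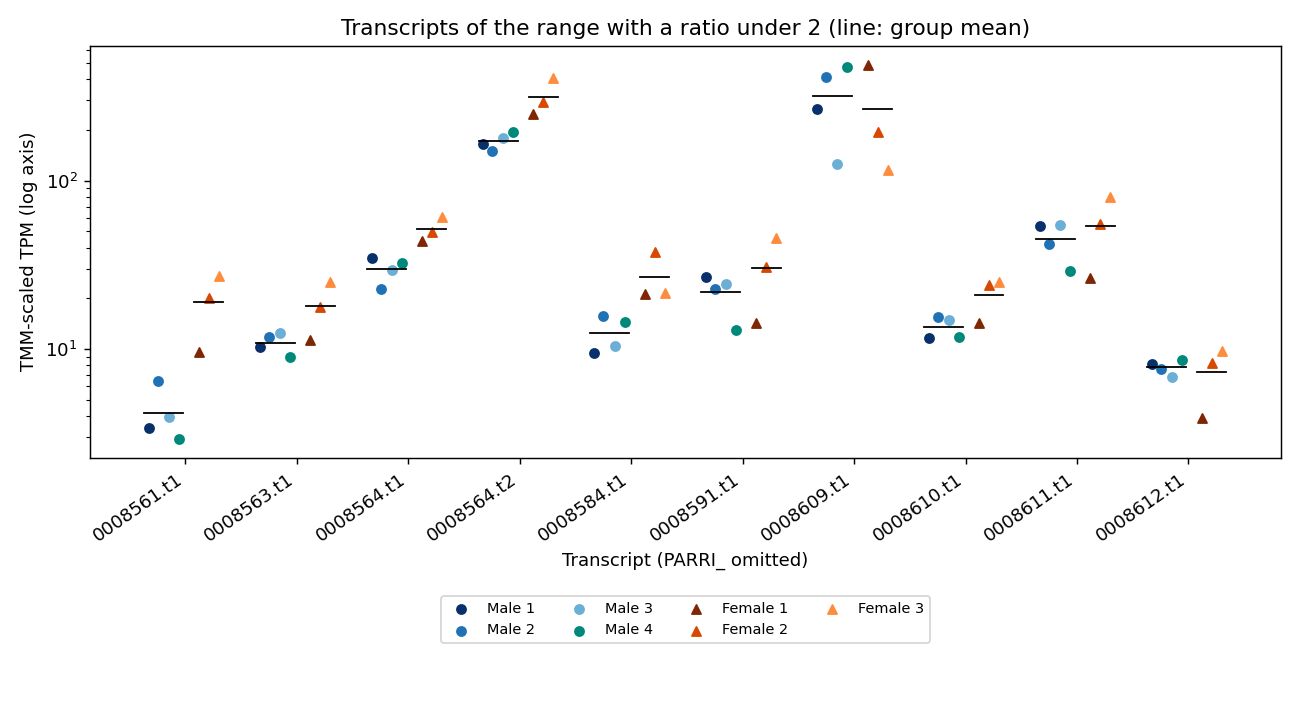
TMM-scaled TPM (log axis) of the 10 transcripts of the range with a ratio under 2, males as circles and females as triangles, 1 point per library, with a line at each group mean. Females lie above males in PARRI_0008561.t1, both transcripts of PARRI_0008564 and PARRI_0008584.t1, and the sexes overlap in the other 6.

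More than 1 transcript was listed for 12 of the 105 loci (11.4%), against 5.01% of loci elsewhere. In the female-biased locus PARRI_0008564, the share of PARRI_0008564.t2 was even, at 82.8 to 87.0% in males and 85.1 to 86.9% in females. In PARRI_0008627 both transcripts were male-high, but their shares varied among males. PARRI_0008627.t2 took 89.3, 79.0, 84.1 and 58.5% of the locus in males, while PARRI_0008627.t1 had 14.7, 13.8, 18.9 and 29.2 TPM in males and 1.19, 1.77 and 0.608 TPM in females, so that Male 4 was the lowest male for one transcript and the highest for the other. In PARRI_0008605, PARRI_0008605.t2 had 37.1, 26.0, 24.0 and 27.0 TPM in males and 0.173, 2.13 and 0.467 TPM in females. PARRI_0008605.t1 had 5.56, 2.13, 4.49 and 0 TPM in males and was listed at 0 in all females, and Male 4 overlapped them. Reads shared between transcripts of a locus, or between near-identical loci, are divided by the estimation and could move values from one to the other. How far this touched the range was not tested.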

How the data were processed

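RNA-Seq values of 4 male and 3 female libraries, grouped by the sex and replicate number of the sample labels, were used. The authors mapped reads to the predicted coding sequences with RSEM 1.3.3 and deposited TMM-scaled TPM, a signal that keeps no read depth, so no counting interval was computed. Mean normalised counts per sex, a second deposited signal, were taken as the authors' means, to describe read support. The same table holds the fold changes and p-values of the authors' DESeq2 1.38.0 comparison, which were not used.

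Males and females were set against each other on log2(TPM + 0.1) in limma 3.58.1 (R 4.3.3). Sex was the single term, the prior variance followed the mean level, tests were two-sided and the FDR limit was 0.05. Transcripts needed 1 TPM or more in 3 or more of 7 libraries. The fit was tested on simulated data. Ratios and counts used Python 3.11.15, pandas 2.3.3 and NumPy 2.4.6, and plots matplotlib 3.10.9.

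The loci and all lists were chosen with earlier results of these data known. Named transcripts were the 10 male-high ones with the highest male means, the 3 with the largest ratios, the 5 most abundant with ratios of 0.5 to 2, up to 5 with ratios below 0.5, those at the limits of the range, all transcripts of the 3 most abundant loci with several, and the 3 widest and 3 narrowest over males. Others were chosen after their values were seen. No 2 libraries of a sex were duplicates, with Spearman correlations of 0.860 to 0.944. Alternatives were another pseudocount, other filters, quantile scaling, a prior without the trend, a block for replicate number, other fold thresholds and leaving out each library.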

Additional observations from a re-analysis of the deposited data

Results flagged for a closer look

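Of 32 named transcripts examined, 1 had a male library that stood apart from the other males. PARRI_0008655.t1, the last of the range, was listed at 0.965 TPM in Male 3 and at 0 in Male 1, Male 2 and Male 4, as in all females, so the gap made up the whole range of the group. Chance flags about 1 in 20 groups of this size by this measure where values are normally distributed. With the other males at 0, any value above 0 in Male 3 would have been flagged, so that rate does not apply here.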

How the results depend on the processing

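Of the 32 named transcripts, 3 that were not called in either direction had log2 ratios of another sign under an alternative. PARRI_0008609.t1 had -0.09 and PARRI_0008611.t1 0.14 without Female 3, against 0.26 and -0.27 with all libraries. After quantile scaling PARRI_0008591.t1 had 0.02, against -0.48, and PARRI_0008611.t1 0.21. The limma difference of PARRI_0008611.t1 was 0.03 with the replicate block, against -0.17 without it. Directions under the alternatives were not computed for the transcripts of the range that are not named. With a pseudocount of 1, 32 transcripts of the range were male-high (26.9%, against 2.34% of all), the median log2 difference was 2.69 and the longest run held 4 loci. A filter on a mean of at least 5 TPM left 63 transcripts of the range tested and 52 called higher in males. Over the matrix this filter left 13274 tested and 3005 called higher in males. Quantile scaling moved the median of all tested transcripts to 0.09 from 0.50 on the log2 scale. With it, 49 transcripts of the range were male-high (41.2%, against 3.41% of all). It left 2 of the range called higher in females, against 4375 of 18446 tested over the matrix. A fold threshold of 25 left 17 male-high transcripts and a longest run of 2 loci. Outside the range it left 462, against 1364 at 10-fold. Dropping the demand on overlap gave a longest run of 19 loci. Leaving out each library in turn gave 83 to 88 transcripts of the range called higher in males, 1 to 6 called higher in females and 70 to 82 male-high. Over the matrix these fits called 3065 to 5552 higher in males and 3135 to 4938 higher in females, of 17834 to 18159 tested. Outside the range 1361 to 1727 were male-high. The median of the range was 3.85 to 5.10 and the longest run held 10 to 19 loci. The most frequent highest male had a share of 41.4 to 66.2%, against 41.0% with all libraries, and fewer males left a larger share for each. With replicate number as a block, the fit called 89 of the range higher in males and 3 higher in females, with a median of 4.52. Over the matrix it called 3712 higher in males and 3874 higher in females, of 18420 tested. Deviations of samples with the same number correlated at -0.01, 0.03 and 0.25. Among the females, Female 3 alone correlated best with its own number, while Female 1 did with Male 4 (0.26) and Female 2 with Male 1 (0.10). With so few libraries this cannot decide whether the numbers pair the samples, and the sources used here do not say. Low levels limit the female values most, with 46 of 78 below 10 normalised counts.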
